A study of Mus musculus with 4 samples.

Results

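The histone genes of the mouse were followed in nuclear RNA of fibroblasts with and without induction of the transcription factor CDX2. They were chosen by gene symbol (Hist1h to Hist4h names, and names that open with H1f, H2ac, H2az, H2af, H2aj, H2ax, H2bc, H3c, H3f, H4c or H4f), and of several transcripts of a gene the most abundant was taken. This gave 79 of the 25177 gene symbols in the authors' deposited table. By RefSeq symbols and synonyms, 65 have a Hist1h to Hist4h name and were taken as clustered, replication-dependent genes. Another 12 have no such name and were taken as variant histone genes, without a check of their position. The other 2 (Hist1h2al and H2afy3) are transcribed pseudogenes.

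All libraries came from NIH-3T3, an established line of mouse embryonic fibroblasts. In every group the cells stably carried H2B-mCherry, the rtTA3G transactivator and a CDX2 transgene under the doxycycline-responsive TRE3G promoter, and the medium held puromycin. The noDox group was 2 libraries of cells given solvent alone, and the Dox group was 2 libraries of cells kept in 500 ng/ml doxycycline over 6 h, each from 500000 cells. The labels disagree on the dose: this figure is from the extraction protocol, and the treatment protocol writes 500 ng per microlitre. The question of the comparison is how nuclear RNA changes within hours of CDX2 expression. Every group carries the transgene, so an effect of doxycycline itself and one of CDX2 cannot be told apart. For each transcript the table gives a fold change and a mean over the libraries, so the level of each group was worked out from the mean level and the fold change. A library's own value, and whether the libraries of both groups overlap, cannot be given from it.

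Nucleosomes are made of the core histones H2A, H2B, H3 and H4, and H1 is the linker histone that binds where DNA enters and leaves them. The clustered, replication-dependent genes are short and mostly without introns, are transcribed in S phase, and give mRNAs that end in a conserved stem-loop in place of a poly(A) tail. The stem-loop is bound by the stem-loop binding protein Slbp, and cleavage behind it needs the U7 small nuclear ribonucleoprotein. Variant genes, such as those of H3.3 and H2A.Z, contain introns more often, give polyadenylated mRNAs, and are transcribed outside S phase as well.

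The stem-loops are shown first, since most of the rows measured for genes that have one end just behind it. Each line gives the gene and the DNA strand of the transcript, 5′ to 3′, from GENCODE M21 transcripts of the build GRCm38 (mm10). Capitals mark the 16 bases of the stem-loop, searched as a perfect 6-base-pair stem opening with GG around a loop of 4 bases opening with TT, and 5 bases stand on each side. The set holds the genes that were called lower (H2ac8 and H2bc8), the H1 and H4 genes with the highest level per length (H1f3 and H4c4), H2ac20 with a form found in it alone, and the only variant gene tested that has such an element (H2ax). The positions are all in 3′ untranslated regions, in the order listed: chr13:23570663-23570688 (minus strand), chr13:23571838-23571863 (plus), chr13:23555782-23555807 (plus), chr13:23581945-23581970 (plus), chr3:96220413-96220438 (minus) and chr9:44335235-44335260 (plus).
H2ac8: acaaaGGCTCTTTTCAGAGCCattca
H2bc8: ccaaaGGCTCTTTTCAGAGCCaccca
H1f3: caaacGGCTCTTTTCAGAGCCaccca
H4c4: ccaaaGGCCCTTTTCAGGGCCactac
H2ac20: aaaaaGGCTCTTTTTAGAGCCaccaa
H2ax: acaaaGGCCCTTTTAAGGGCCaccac

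Among all members a stem-loop of this kind was found in 43, in 7 different forms. The form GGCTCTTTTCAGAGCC was carried by 24 members, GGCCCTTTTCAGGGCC by 7 and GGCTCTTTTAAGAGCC by 6. Of the 58 clustered genes with enough reads to be tested, 45 had a reference model with at least 30 bases of 3′ untranslated region, and 39 of these 45 held the element. No match says only that these letters are not in that model. Of 7 variant genes tested, H2ax alone held it. In 35 of 42 members with a single exon and a stem-loop, the row of the authors' deposited table ended 4 to 6 bases behind the stem-loop. The counts of these 35 rows therefore leave out bases beyond that end. Within the row, reads of mature mRNA and of unprocessed transcripts cannot be told apart. The row of H2ax ended 818 bases behind its stem-loop.

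The stretch between the start sites of divergent H2A and H2B genes was read as well, because both genes of such a pair share it. The first sequence lies between H2ac8 and H2bc8, the genes called lower (chr13:23571221-23571399). The next belongs to the pair with the largest difference in fold change, H2ac15 and H2bc15 (chr13:21753913-21754075), and the one after it to the pair with the smallest, Hist1h2an and Hist1h2bp (chr13:21787249-21787487). The last is the 250 bases before H2ac21 (chr3:96219635-96219884), the only one of the 79 genes called higher. All are the plus strand, 5′ to 3′, from RefSeq on GRCm38.p6. Capitals mark the searched motifs on either strand, which are the TATA box (TATAAA or TTTATA), the CCAAT box (CCAAT or ATTGG), the octamer (ATTTGCAT or ATGCAAAT) and a core of the sequence bound by CDX proteins (TTTATG or CATAAA).
H2ac8 and H2bc8: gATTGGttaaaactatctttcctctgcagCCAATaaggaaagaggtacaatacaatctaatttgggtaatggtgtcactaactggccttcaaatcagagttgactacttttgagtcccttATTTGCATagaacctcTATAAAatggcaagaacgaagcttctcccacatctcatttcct
H2ac15 and H2bc15: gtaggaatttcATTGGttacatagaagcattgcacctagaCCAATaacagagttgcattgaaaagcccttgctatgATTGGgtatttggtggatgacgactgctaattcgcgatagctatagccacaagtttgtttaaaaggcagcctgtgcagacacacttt
Hist1h2an and Hist1h2bp: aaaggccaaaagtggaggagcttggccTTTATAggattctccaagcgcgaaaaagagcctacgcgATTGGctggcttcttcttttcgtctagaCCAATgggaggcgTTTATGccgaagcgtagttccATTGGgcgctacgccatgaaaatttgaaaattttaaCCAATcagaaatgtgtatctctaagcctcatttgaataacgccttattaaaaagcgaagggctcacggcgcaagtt
H2ac21: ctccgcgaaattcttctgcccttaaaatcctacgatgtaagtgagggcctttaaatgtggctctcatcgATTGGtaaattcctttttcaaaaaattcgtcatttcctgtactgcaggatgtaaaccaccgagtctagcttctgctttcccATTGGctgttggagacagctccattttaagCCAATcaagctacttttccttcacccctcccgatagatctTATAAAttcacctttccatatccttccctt

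The H2ac8 and H2bc8 stretch held 2 CCAAT boxes, 1 octamer and 1 TATA box, and no CDX core. The H2ac15 and H2bc15 stretch held 3 CCAAT boxes and no other motif searched. The stretch of Hist1h2an and Hist1h2bp held 4 CCAAT boxes, 1 TATA box and 1 CDX core, and the H2ac21 stretch held 3 CCAAT boxes and 1 TATA box. A match is a run of letters and not a site shown to be bound.

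In the table as a whole, 12355 genes reached a mean of 10 counts per library, or 0.230 CPM (counts scaled to a common library size), and were tested. Means of counts and of CPM are geometric means over the 4 libraries. Genes were called at the authors' limma adjusted p under 0.05, which 24.7% of the genes tested passed, 11.3% of them as higher and 13.4% as lower with doxycycline. Called genes were higher in 45.7% of cases on the authors' scaling, and in 59.5% after the median of 82 ribosomal protein genes, -0.044, was set to 0. The Cdx2 row, in which reads of the transgene and of the endogenous gene cannot be told apart, went from 4.96 to 612 CPM. Fibroblast markers were all tested (8 of 8, from 5.64 CPM for Thy1 to 2086 CPM for Col1a1), while 1 of 5 epithelial and 1 of 3 immune markers reached the count floor, both at means under 1 CPM. Of the fibroblast markers, 6 of 8 were called lower. In bulk RNA, fewer cells of a type and less RNA per cell cannot be told apart. The labels do not name the replicates as separate cultures, so the spread behind the p-values may be technical. That spread was pooled over transcripts, so a p-value does not measure the spread of its own gene between the libraries.

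Of the 79 histone genes, 67 were tested, namely 58 clustered genes, 7 variants and both pseudogenes. Only 3 passed the test: H2ac8 and H2bc8 fell and H2ac21 rose. That is 4.48% of the histone genes tested, beside 24.7% of all genes tested in the authors' deposited table. Among other genes at the middle range of the members' levels (29.8 to 88.8 CPM), 27% were called. Among other short genes (under 1000 exon bases, at a mean of at least 16 CPM) 5.14% were called, 17 of 331, and among the 49 histone genes within the same limits 2 were called, or 4.08%. At an unadjusted p under 0.05 stood 14 of the 67 histone genes (20.9%) and 36.4% of all genes tested. Within the limits for short genes, 12 of 49 histone genes (24.5%) and 34 of 331 other genes (10.3%) had such a p. The difference between these shares was not tested.

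H2ac8, a clustered gene for a canonical H2A (chromosome 13, 23570663 to 23571220, minus strand), had a level of 58.4 CPM without and 50.2 CPM with doxycycline in the authors' deposited table. The log2 fold change was -0.22 ± 0.069 (standard error) with an adjusted p of 0.0142. Its divergent partner H2bc8, which encodes a canonical H2B (chromosome 13, 23571400 to 23571863, plus strand), went from 93.0 to 80.8 CPM. Its log2 fold change was -0.20 ± 0.066, adjusted p = 0.017. These neighbours, whose shared upstream stretch is printed above, thus fell by nearly the same amount. H2ac21, an H2A gene of the chromosome 3 cluster (96219885 to 96220353, plus strand), rose from 6.00 to 7.38 CPM, by 0.30 ± 0.11 on the log2 scale with an adjusted p of 0.0409. It lies 60 bases, 3′ end to 3′ end, from H2ac20 on the opposite strand, whose log2 fold change was 0.033 ± 0.067 at 67.4 CPM. The sources used here do not say whether the counting used strand. With standard errors widened 2.08 times, the robust spread of t over all genes tested, none of the 3 genes passed (adjusted p of 0.682 for H2ac8, 0.695 for H2bc8 and 0.783 for H2ac21), and H2bc8 did not pass with the ribosomal protein median at 0 either (adjusted p = 0.0524).

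Just outside the threshold stood H2bc4 at -0.17 (adjusted p = 0.0778), H4c2 at -0.16 (0.0978), H2bc9 at 0.17 (0.0982), H3c4 at -0.16 (0.106) and H2ac15 at -0.16 (0.107). These did not pass the test.

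**Figure D1:**
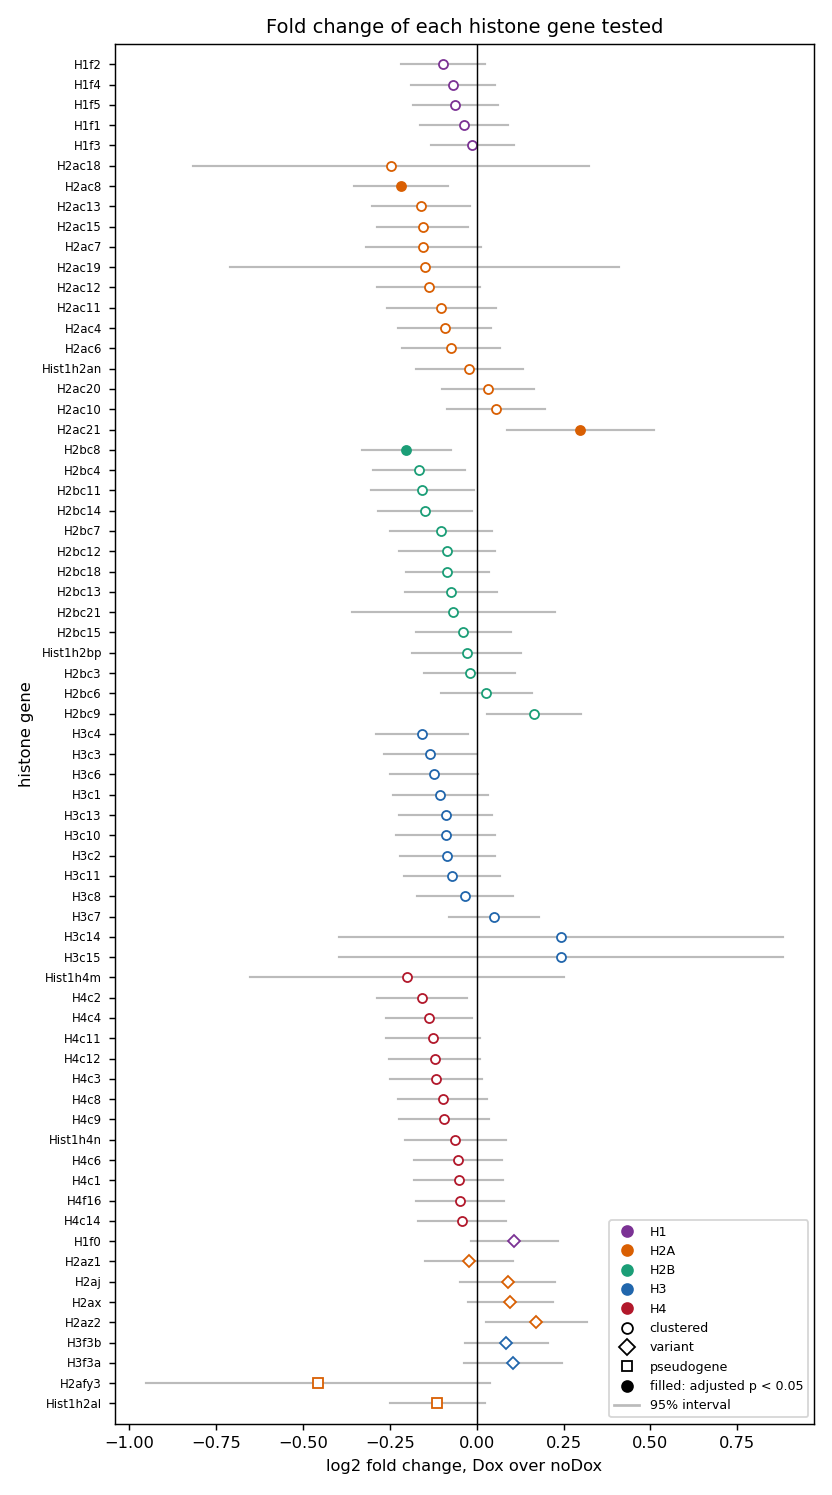
Log2 fold change (Dox over noDox) of the 67 histone genes tested, by group and class, from the authors' deposited table. Bars are 95% intervals from the standard error under normal errors, and filled points mark the 3 genes with an adjusted p under 0.05; 50 of 58 clustered genes lie left of 0 and 6 of 7 variants right of it, and 42 of 58 and 7 of 7 do once the ribosomal protein median is set to 0.

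The single genes were small in effect, but most clustered genes leaned to the same side of 0. The median log2 fold change of the 58 clustered genes was -0.087, or -5.84% in level, with quartiles of -0.14 and -0.040. Below 0 lay 50 of the 58 (86.2%), and 42 of 58 did after the ribosomal protein median was set to 0, with a median of -0.043. Over all genes tested the median was -0.0011 and 50.3% lay below 0, while over the other short genes the median was 0.0082 and 46.8% lay below 0. Other genes of the members' middle range of level had a median of -0.015. These counts carry no test, because the genes of 1 table share libraries and scaling and reads.

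The variant genes leaned the other way, and 0 of 7 passed limma's test, with 1 at an unadjusted p under 0.05. Their median was 0.097 (6.94% in level), and 6 of 7 lay above 0, or 7 of 7 after the ribosomal protein median was set to 0. Summed over genes, the clustered level went from 4214 to 3992 CPM, a ratio of 0.947, and the variant level from 679.8 to 718 CPM, a ratio of 1.06. The difference between the clustered and the variant genes was not tested.

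**Figure D2:**
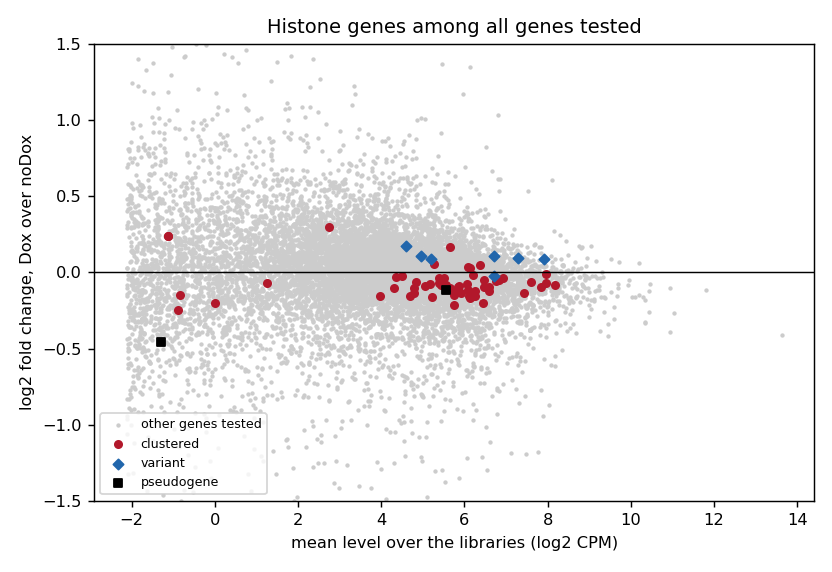
Log2 fold change against mean level (log2 CPM) for the histone genes and all other genes tested; the vertical axis is limited to 1.5 on each side, so genes beyond it, Cdx2 among them, are not drawn. Clustered genes (circles) sit mostly just under 0, variants (diamonds) just above it, and both lie within the band of the other genes.

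The spread among the members was close to that of other short genes and smaller than that of other genes at their level. The robust standard deviation of the log2 fold change was 0.080 over the 67 histone genes and 0.20 over all genes tested, 0.15 over other genes of the same middle range and 0.083 over other short genes. The median standard error of the members was 0.069. Spread and error of the histone genes were thus of similar size. These standard errors were pooled by the authors over transcripts, so they do not use the replicates of the gene itself.

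Linker histone H1 genes of the cluster were among the most abundant members per length. Their median level was 317 CPM per kb of exon, and all 5 were tested. H1f3 had 251.7 CPM without and 249.5 CPM with doxycycline, a log2 fold change of -0.013 ± 0.061. H1f4 went from 256 to 244 CPM (-0.070 ± 0.062) and H1f2 from 238 to 222 CPM (-0.097 ± 0.062). Of the 5, 0 passed limma's test and 0 had an unadjusted p under 0.05. All 5 values lay below 0, with a median of -0.063, but only 3 did after the ribosomal protein median was set to 0, when H1f3 and H1f1 lay above it. The testis-specific H1f6 was under the count floor.

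Clustered H2A genes ran from -0.25 to 0.30, and their 14 tested members included a gene called in each direction. Their median level was 63.4 CPM per kb, and their median log2 fold change was -0.12, with 11 of 14 below 0 (10 of 14 with the ribosomal protein median at 0). H2ac20 had the highest level per length of the class, 144 CPM per kb, and H2ac15 followed at 139 CPM per kb. H2ac15 went from 78.4 to 70.3 CPM and did not pass the test. H2ac4 stood at 115 CPM per kb with a log2 fold change of -0.093 ± 0.068. The standard errors were widest for H2ac18 (-0.25 ± 0.29) and H2ac19 (-0.15 ± 0.29), which lie on the same bases, share reads and have means of 24.0 and 24.8 counts.

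Clustered H2B genes held the most abundant member, H2bc18, at 589 CPM per kb. It went from 298 to 281 CPM, a log2 fold change of -0.085 ± 0.061 that did not pass the test. H2bc8 followed at 187 CPM per kb and H2bc4 at 151 CPM per kb. H2bc4 went from 74.8 to 66.6 CPM. The class had a median of -0.079, with 12 of 14 below 0 (9 of 14 with the ribosomal protein median at 0), and 1 of 14 passed the test. H2bc9 stood apart from the rest at 47.4 CPM without and 53.2 CPM with doxycycline. The row used for H2bc6 spans introns and has 2477 exon bases, so its 28.5 CPM per kb is lower than the 158 CPM per kb of its row of 444 exon bases. All groups carry an H2B-mCherry transgene, and whether its reads were counted in an H2B row was not tested.

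Of the clustered H3 genes 0 of 12 passed limma's test, with 2 at an unadjusted p under 0.05, and their median log2 fold change was -0.087. Below 0 lay 9 of 12, or 8 of 12 with the ribosomal protein median at 0. H3c4 led the class at 137 CPM per kb and went from 72.5 to 65.0 CPM. H3c3 had 63.5 CPM without and 57.9 CPM with doxycycline (-0.13 ± 0.068), and H3c13 had 60.3 and 56.7 CPM (-0.089 ± 0.068). H3c14 and H3c15 have overlapping rows with the same values (0.24 ± 0.33 at a mean of 20.6 counts), so they are a single measurement.

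The clustered H4 genes all lay on the same side. Their median was -0.098, the range -0.20 to -0.042, and 13 of 13 were below 0, or 12 of 13 with the ribosomal protein median at 0, when H4c14 lay above it. Even so 0 of 13 passed limma's test, with 2 at an unadjusted p under 0.05. H4c4, the most abundant per length at 429.7 CPM per kb, went from 181 to 164 CPM (-0.14 ± 0.063, adjusted p = 0.139). H4c14 followed at 289.7 CPM per kb (-0.042 ± 0.065) and H4c6 at 282 CPM per kb (-0.055 ± 0.065). The mouse genome holds many genes for the same H4 protein, and the class had a median level of 195 CPM per kb.

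**Figure D3:**
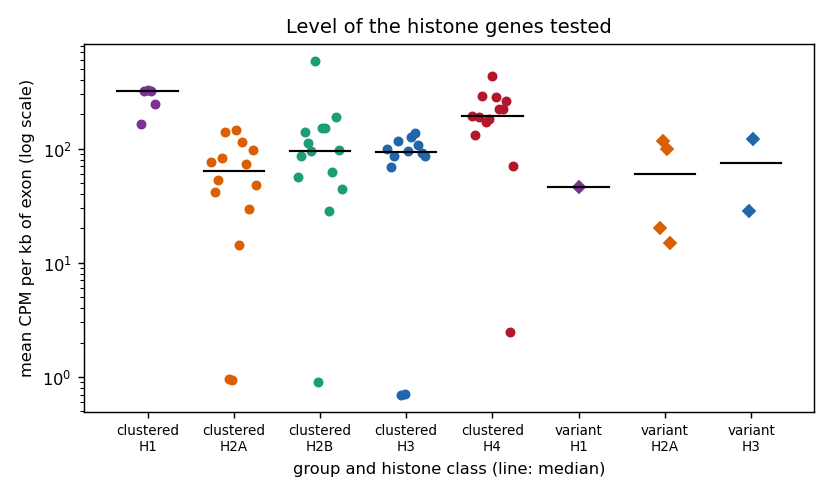
Mean level per kb of exon (CPM per kb, log scale) of each histone gene tested, by group and class, with a line at the class median. Clustered H1 and H4 genes stand highest by their medians (317 and 195 CPM per kb), H2bc18 is the highest single gene at 589, and a few clustered genes lie near 1 CPM per kb.

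Among variants, the H3.3 genes H3f3a and H3f3b encode the same protein, which is deposited outside replication. H3f3b went from 233 to 247 CPM (0.085 ± 0.061) and H3f3a from 29.7 to 32.0 CPM (0.10 ± 0.072). Per length H3f3b stood at 121 CPM per kb and H3f3a at 28.6. Neither passed the test. The other H3 genes grouped as variants by name, H3f3c and H3f4, were under the count floor.

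H2ax, whose protein is phosphorylated at DNA breaks, went from 152 to 162 CPM (0.097 ± 0.063). The H2A.Z genes had values of different sign, and the difference between them was not tested. H2az1 went from 106 to 104 CPM (-0.022 ± 0.064) and turned to 0.022 with the ribosomal protein median at 0. H2az2 had the largest value of the 7 variants tested, with 22.9 CPM without and 25.8 CPM with doxycycline (0.17 ± 0.074, adjusted p = 0.11). It would be called at 0.22 with the ribosomal protein median at 0. H2aj stood at 35.7 and 38.0 CPM (0.089 ± 0.070).

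H1f0, a replacement linker histone known from resting and differentiated cells, went from 101 to 108 CPM (0.11 ± 0.064) and did not pass the test. At 45.6 CPM per kb it was lower per length than each of the 5 clustered H1 genes tested. H1f7, H1f8 and H1f10 had a few reads at most and were not tested. The pseudogene Hist1h2al, on chromosome 13 away from the clusters, had 48.8 CPM without and 45.1 CPM with doxycycline (-0.11 ± 0.070). H2afy3 had a mean of 18.1 counts (-0.46 ± 0.25, adjusted p = 0.278), and its row overlaps that of another gene.

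The 12 members under the count floor were 7 clustered genes and 5 variants, with means of 0.0946 to 5.26 counts per library. Their log2 fold changes ran from -1.12 to 0.63, and the smallest adjusted p was 0.214. They include the testis types H2ac1, H2bc1 and H1f6. Others are Hist1h2ao, Hist1h2ap, Hist1h2bq and Hist1h2br, whose sequence is nearly all shared with other genes.

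Many clustered genes share sequence, which bears on their levels. In the 51 clustered genes at a mean of at least 10 CPM, a median of 49.5% of the 50-base stretches of the transcript were also found in transcripts of other genes, with a range of 0 to 93.9%. In the 13 clustered genes under 3 CPM the median was 89.8% with a range of 0 to 100%, 6 of 13 being at 90% or more, and in the 7 variants tested it was 6.14%. The sources used here do not say how reads that map to several places were treated. The part of sharing in the low levels of these genes was not tested. Among clustered genes at 10 CPM or more, where the median share is still 49.5%, 46 of 51 lay below 0 on the authors' scaling, with a median of -0.089. Of these 46, H1f3, H1f1, Hist1h2an, H2bc3, H2bc15, Hist1h2bp, H3c8 and H4c14 lay above 0 with the ribosomal protein median at 0. Whether sharing bears on this count was not tested.

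The clusters lie in a few runs of genes, here split where neighbours are over 100 kb apart. On chromosome 13 the first run (21715711 to 21834201, 118 kb) holds 18 members, of which 14 were tested, with a median of -0.081 and 14 of 14 below 0 (11 of 14 with the ribosomal protein median at 0). The second run (22035122 to 22043658) holds 5, with a median of -0.10 and 5 of 5 below 0 on both scalings. The third (23531044 to 23764412, 233 kb) holds 29, 28 of them tested, with a median of -0.095 and a range of -0.22 to 0.17. In it 24 of 28 lay below 0 (20 of 28 with the ribosomal protein median at 0), and both genes called lower are there. The chromosome 3 cluster (96219885 to 96270192, 50.3 kb) had 10 members tested, a median of -0.055 and 6 of 10 below 0, or 5 of 10 with the ribosomal protein median at 0. It holds H2ac21, the only one of the 79 genes called higher. Its rows of H3c14 and H3c15 have the same values, and those of H2ac18 and H2ac19 lie on the same bases. These rows have means of 20.6 to 24.8 counts, so the 10 members are not all separate measurements. A further run on chromosome 13 (23933725 to 23934913) holds H2bc1 and H2ac1, of which 0 were tested. H4f16 is the only clustered gene on chromosome 6 (136803993 to 136804431, -0.049 ± 0.064). The variant gene H2aj lies close to it (136808248 to 136810074) and had a value above 0 (0.089 ± 0.070). No test of a difference between runs was made.

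**Figure D4:**
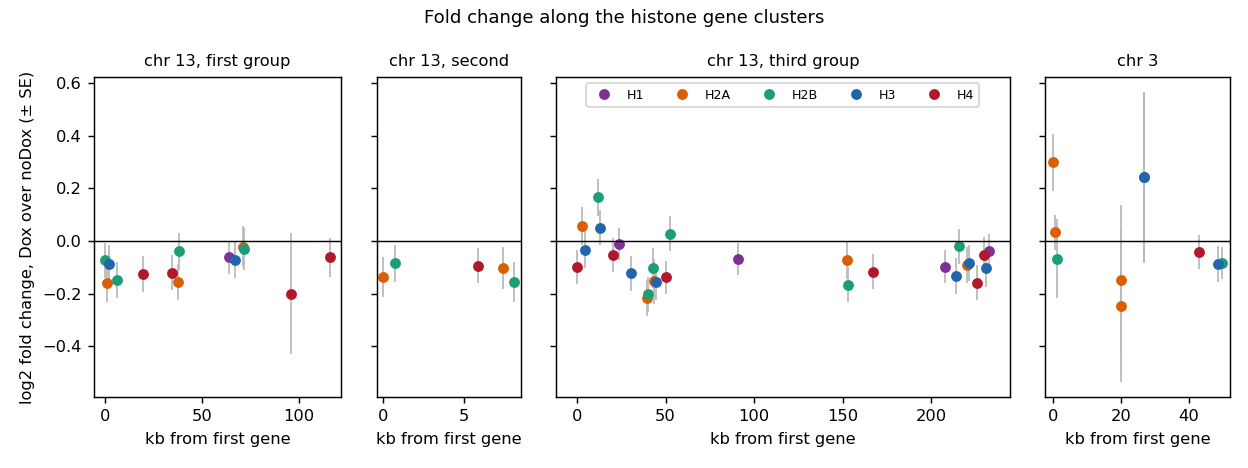
Log2 fold change (Dox over noDox, bars ± standard error) of clustered genes against the distance in kb from the first gene of each run, coloured by class. Values lie mostly under 0 along the 3 runs of chromosome 13 that hold tested genes. The chromosome 3 run holds H2ac21 at 0.30 and 6 of 10 genes below 0. In that run H3c14 and H3c15 have the same values, and H2ac18 and H2ac19 lie on the same bases.

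Divergent genes with start sites within 500 bases formed 12 pairs, and in 9 both genes were tested. In 8 of these 9 pairs both genes lay below 0, or in 6 of 9 with the ribosomal protein median at 0. The distance between starts was 164 to 249 bases. The values within a pair differed by a median of 0.054 on the log2 scale, beside a median standard error of the difference of 0.10, and in 9 of 9 pairs the difference was within 1.96 standard errors. H2ac8 and H2bc8, 180 bases apart, differed by 0.014. The largest difference was that of H2ac15 (-0.16) and H2bc15 (-0.039), at 0.12 ± 0.097. Differences of this size are therefore not resolved in these data.

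**Figure D5:**
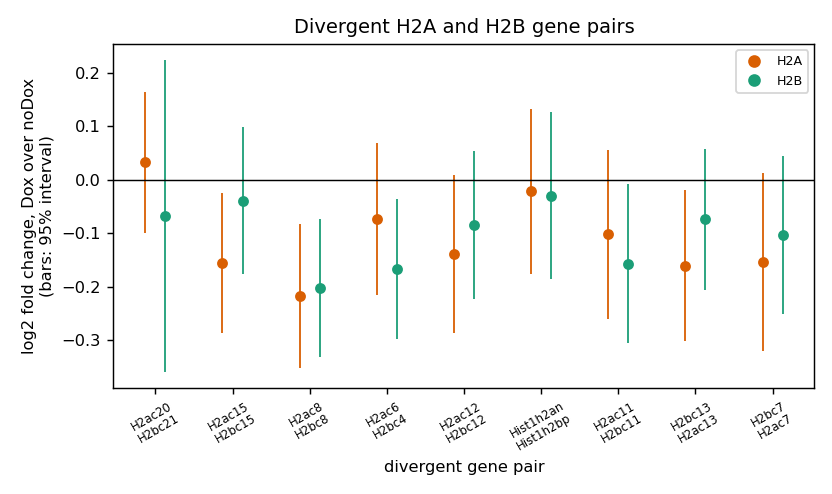
Log2 fold change (Dox over noDox) of both genes in the 9 divergent pairs tested, with bars for the 95% interval. In 8 pairs both points lie under 0 on the authors' scaling (6 of 9 with the ribosomal protein median at 0), and the bars of the partners overlap in every pair.

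Promoter windows of 300 bases, from 250 before to 50 after the RefSeq start on GRCm38.p6, were at hand for 53 of the 58 clustered genes tested. The CCAAT box, bound by the factor NF-Y, occurred in 83.0% of them and in 37.9% of all 27025 promoters. The TATA box occurred in 60.4% against 14.2%, and the octamer, bound by Oct1 (Pou2f1), in 18.9% against 1.75%. By class, the CCAAT box was in each clustered H1, H2A, H2B and H3 window and in 3 of 12 H4 windows, and the octamer was found in 5 of 14 H2A and 5 of 12 H2B windows and in no other class of clustered gene. Windows of divergent partners overlap and are not independent.

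The CDX core was in 28.3% of the clustered windows (15 of 53) and in 12.1% of all promoters. The 15 genes with it had a median log2 fold change of -0.085, with 14 below 0, and the 38 without it had -0.092, with 32 below 0. With the ribosomal protein median at 0 these counts were 11 of 15 and 28 of 38. The 3 called genes are all among those without it. Genes with the octamer had a median of -0.089 (n = 10 genes) and genes without it -0.089 (n = 43 genes). Genes with the TATA box stood at -0.085 (n = 32) and without it at -0.097 (n = 21). Genes with the CCAAT box stood at -0.085 (n = 44, 37 below 0, all 3 called genes among them). Those without it stood at -0.098 (n = 9, 9 below 0). With the ribosomal protein median at 0 these counts were 30 of 44 and 9 of 9. The 9 genes without it are all H4 genes, so motif and class cannot be told apart there. By these medians the clustered genes hardly separate by motif, and binding of CDX2 was not measured here. Among the stem-loop groups, the 39 clustered genes with the element had a median of -0.097 and the 6 with a model that lacked it -0.060. With the ribosomal protein median at 0 these medians were -0.054 and -0.016. The model searched is not always the row measured: that of H2bc4, among the 6, has 2 exons and 1156 bases, and its row has 468 exon bases.

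Genes that make or handle histone mRNA were read from lists of known factors. Calls in all these lists rest on the authors' scaling and standard errors. List calls with the ribosomal protein median at 0, or with wider errors, were not read out, though both settings changed calls among the histone genes. Of 21 histone pre-mRNA processing genes tested, 1 rose and 2 fell, a share of 14.3% called, while 24.7% of all genes tested in the authors' deposited table were. Slbp, which binds the stem-loop, rose by 0.27 ± 0.071 (35.8 CPM, adjusted p = 0.00159). Lsm11, a protein of the U7 particle, fell by 0.36 on the log2 scale (19.1 CPM, adjusted p = 6.49e-05). Cpsf3, the endonuclease that cuts the pre-mRNA, fell by 0.20 (37.1 CPM, adjusted p = 0.0384).

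Of 16 genes that regulate histone gene transcription, 4 rose and 1 fell (31.2% called, beside 24.7% of all genes tested). Hinfp, the activator of H4 genes, rose by 0.32 ± 0.097 at 7.47 CPM. Nfyb, a subunit of the CCAAT-binding factor, rose by 0.32 ± 0.081 at 15.1 CPM. Cyclin E (Ccne1) and its kinase Cdk2, which drive entry into S phase, rose by 0.33 ± 0.073 and 0.27 ± 0.071. E2f4, known as a repressor of cell cycle genes in resting cells, fell by 0.21. The median of the list was 0.078.

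Of 39 histone chaperone and deposition genes, 4 rose and 3 fell (17.9% called, beside 24.7% of all genes tested), with a median of 0.017. Among those that rose, Daxx (0.22 ± 0.078) deposits H3.3, Hjurp (0.24 ± 0.063) deposits the centromeric H3 variant, Mis18a (0.32 ± 0.093) prepares its loading, and Tonsl (0.29 ± 0.072) binds new histones behind the replication fork. Among those that fell, Supt16 (-0.27 ± 0.064) is the large subunit of the FACT chaperone, Set (-0.19 ± 0.062) is an H1 and core histone chaperone, and Cabin1 (-0.20 ± 0.070) belongs to the HIRA complex.

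Of 47 S phase genes, 8 rose and 1 fell (19.1% called, beside 24.7% of all genes tested, which were 11.3% higher and 13.4% lower), with a median of 0.049. Slbp, Ccne1 and Cdk2 are also on the lists above. Rrm2, a subunit of ribonucleotide reductase, rose by 0.35 ± 0.064 (126 CPM, adjusted p = 7.35e-07). Pold3, a subunit of DNA polymerase delta, rose by 0.43 ± 0.079 at 17.8 CPM. Cdc45 (0.31 ± 0.069) and Gins2 (0.23 ± 0.081) are parts of the replicative helicase, Tk1 (0.18) is a thymidine kinase, and these 3 rose too. Prim1, the catalytic subunit of primase, fell by 0.24. The medians of this list and of the clustered histone genes stand on different sides of 0, and the difference was not tested.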

How the data were processed

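Nuclear RNA of 4 libraries was sequenced after a directional library preparation (NEBNext Ultra II), per the labels' protocols; whether poly(A) RNA was selected or ribosomal RNA removed, which bears on mRNAs without a poly(A) tail, is not stated in these sources. The tools limma, edgeR, HOMER 4.10, Picard, SAMtools 1.10 and STAR 2.7.1a and the build mm10 are listed per the submitters' processing notes, without their roles. The authors' deposited table has, per the file headers, limma's columns: a log2 fold change, a mean log2 level, a moderated t score, a p-value and an adjusted p-value, with other columns for transcript coordinates and length. The mean log2 level is on a log2 CPM scale, since rows without reads sit at the value of 0.5 counts in an effective library of 45700000 counts (geometric mean).

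Standard errors were computed as fold change over t. Levels per group are the mean log2 level minus or plus 0.5 of the fold change. Genes that reached a mean of 10 counts were called at the authors' adjusted p under 0.05. All 79 members matched RefSeq symbols. In 66 of 71 members with a promoter window the start in the table equalled that of RefSeq. Members and gene lists were chosen with earlier results of these data known, and 1 gene of the S phase list is not reported here and was left out of its counts. Named in the text were all called members, the 3 highest per length in each clustered class, all variants with reads and all called list genes; H2bc9, H2ac18, H2ac19, H3c14, H3c15, H2bc6 and the pairs shown were named after their values were seen, and the group of other short genes was set then too. Alternatives were other count floors, transcripts, scalings, p adjustments and wider errors. Python 3.11.15, numpy 2.4.6 and pandas 2.3.3 were used, and the calculations were tested on simulated data.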

Additional observations from a re-analysis of the deposited data

How the results depend on the processing

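No paired analysis was possible because the authors' deposited table holds no value per library; a replicate block and leaving out single libraries were not run for the same reason. When every standard error was multiplied by 2.08 (the robust standard deviation of t in the genes tested), 0 members were called higher and 0 lower (190 and 386 of all genes), and H2ac8, H2bc8 and H2ac21 had adjusted p-values of 0.682, 0.695 and 0.783. With the median of 82 ribosomal protein genes set to 0, 3 members were called higher (H2ac21, H2az2 and H2bc9) and 1 lower (H2ac8), H2bc8 stood at -0.16 (adjusted p = 0.0524), and H2az1, H1f3 and H4c14 turned to 0.022, 0.031 and 0.0019. Without H2B genes 1 member was called lower. At a floor of 10 CPM, chosen after seeing the data, 0 were called higher, since H2ac21 lies under it. With p adjusted over the genes tested, or with the median of these genes set to 0, 1 member was called higher and 3 lower, H2bc4 being added. No floor, a floor of 50 counts, the longest transcript of each gene and leaving out members that overlap other rows gave 1 higher and 2 lower. The median of the clustered genes stayed below 0 and that of the variants above 0 under every scaling, floor and transcript choice run. The factor of 2.08 was taken over all genes tested, any that changed with doxycycline included, so it does not measure error alone. The calls thus depend on the size of errors assumed, and 2 libraries per group limit them.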

Other observations

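Some histone genes fell outside the symbols chosen. Their calls rest on the authors' scaling and standard errors, and calls with wider errors or another scaling were not read out. Cenpa, the H3 variant of centromeres, rose in the authors' deposited table from 49.4 to 57.2 CPM (0.21 ± 0.067 on the log2 scale, limma adjusted p = 0.014), as did its chaperone Hjurp. H2aw, an H2A gene, stood at 70.3 CPM without and 76.1 CPM with doxycycline (0.11 ± 0.067, adjusted p = 0.325). The macroH2A genes Macroh2a1 and Macroh2a2 had log2 fold changes of -0.024 ± 0.069 and 0.043 ± 0.078 and did not pass the test. H2bu2 lay at a mean of 0.350 CPM (0.49 ± 0.35). H2aw and H2bu2 thus both lay above 0. They are in none of the counts of clustered genes given above, and whether they belong to a histone cluster was not looked up. Hils1 was under the count floor, and 23 further histone genes, H2bfm and most H2al testis variants among them, had no reads in any library.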
